A study of Mus musculus with 4 samples.

Results

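The ligands of the epidermal growth factor (EGF) family and their ErbB receptors were followed across the cell classes of mouse digits after amputation of the digit tip. The 9 members were taken by gene symbol: the EGFR ligands Areg, Ereg, Hbegf, Tgfa and Btc, the neuregulin Nrg1, and the receptors Egfr, Erbb2 and Erbb3. They occupied 10 of the 33696 gene rows in the count matrices, since the symbol Nrg1 has 2 rows, and the second of these held 0 UMIs in every library. Single-cell RNA was counted as unique molecular identifiers (UMIs) in 4 libraries, 1 per condition, each made from the digits of 10 pooled mice. All mice were female C57BL/6 by the labels (C57BL/6J in the methods), aged 6 to 8 weeks. The tip of the third phalanx (P3, the bone of the digit tip) was amputated on digits 2 and 4 of the hind limbs by the methods, while the labels give hindlimb digits 2-4 as the tissue taken. By the methods, the digits taken were cut at the proximal level of the second phalanx (P2). The tissue thus reached beyond the amputated P3 and included a digit that the methods do not list as amputated. Digits were collected 8 days after amputation, and for the SAR131675 experiment the sources name both 8 and 5 days. In the SAR131675 experiment, mice ate chow with 30 mg/kg of SAR131675, an inhibitor of VEGFR3, the main growth factor receptor of lymphatic vessels. The labels give 8 days of this diet, whereas the methods start it 5 days before amputation, and the control library came from mice on control diet. In the lymph node removal (LNR) experiment, the popliteal and inguinal nodes were removed on 1 side, and the contralateral sham-operated side gave the control library, named sham here. Tissue of all 4 libraries was dissociated with collagenase and dispase for 45 minutes at 37 °C.

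EGF family ligands are made as membrane-anchored precursors, and metalloproteases, ADAM17 above all, cut off the active domain. AREG, EREG, HBEGF, TGFA and BTC bind EGFR, and HBEGF, EREG and BTC also bind ERBB4. NRG1 binds ERBB3 and ERBB4. ERBB2 has no known ligand and acts as the partner of the other receptors, and ERBB3 has little kinase activity of its own and signals through its partner. In skin this system is known for its part in keratinocyte growth and migration after wounding, and in nerve NRG1 and ERBB3 are known for their part in the survival and myelination of Schwann cells.

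With 1 library per condition, and with a separate batch number in the labels for every library, no test between conditions was possible, and batch and treatment cannot be told apart. After filtering, 19827 to 29076 cells per library remained, with median UMI counts per cell of 11316 and 10712 in the SAR131675 and control diet libraries and of 5725 and 5851 in the LNR and sham libraries. The 2 libraries of the SAR131675 experiment shared 210 cell barcodes, 0.874% of the smaller library, and the LNR and sham libraries shared 101, or 0.509%. Per the matrix headers, the SAR131675 and control diet libraries were counted with Cell Ranger 8.0.1 and the LNR and sham libraries with 6.1.2, whereas the submitters' processing notes give 6.1.2 for all. Version 8 of this software counts intronic reads by default and version 6 does not. Levels are given as CPM, the UMIs of a gene scaled to 1000000 UMIs of the same cells. Over whole libraries, the log2 ratio of control diet to sham CPM had a median of 0.44 over 17687 genes and lay past 2-fold for 27.4% of them. The same ratio was 3.12 for Btc, 2.99 for Nrg1, 2.29 for Egfr, 1.99 for Ereg, 1.72 for Tgfa, 0.92 for Erbb3, 0.74 for Erbb2, -0.22 for Areg and -0.87 for Hbegf. Levels are therefore set side by side within an experiment, and differences between the experiments cannot be told apart from the counting version and depth.

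Cells were grouped into classes by clustering without the 9 members and the other genes of the pathway, and a class was named "-like" from its markers. The markers of 2 classes that the results turn on were high there: the granular class held 127644, 123200, 24504 and 26969 summed CPM of its 9 markers in the SAR131675, control diet, LNR and sham libraries, the order used below wherever 4 values stand together. The synovial lining class held 145470, 144839, 125436 and 129360 summed CPM of its 5 markers in the same order. The granular markers thus stood higher in the granular class of the SAR131675 experiment than in that of the LNR experiment. The granular class also held 82814, 81229.8, 85144 and 85016 summed CPM of the 7 spinous markers, above the 54633, 58179.8, 47403 and 47231 of the spinous class. In LNR and sham its spinous markers exceeded its granular markers, and the layer values of Ereg, Btc, Tgfa, Nrg1 and the receptors rest on it. Erythroid cells were no clean background, since basal keratinocyte markers summed to 9678, 9830.2, 7979 and 9247 CPM in them, and NK/T cells, with 3031, 1572, 3417 and 5214 CPM, were set beside the leading classes in their place for all members but Areg.

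The promoters of Areg and Btc are shown because these neighbouring genes were led by different cells, Areg by lymphocytes and Btc by granular keratinocytes. In the RefSeq annotation of GRCm38.p6, Epgn, Ereg, Areg and Btc follow each other on chromosome 5 with no other protein-coding gene between them. Promoter sequence from RefSeq was examined for 5 of the 9 members, Areg, Tgfa, Btc, Egfr and Erbb2. No promoter result is given for Ereg, Hbegf, Erbb3 and Nrg1. The 250 bases upstream of the start are printed 5′ to 3′ on the strand of the gene, for Areg from chr5:91139349-91139598 on the plus strand and for Btc from chr5:91402995-91403244 on the minus strand. Capitals mark matches to the cyclic AMP response element, TGACGTCA, and to the TATA box, TATAAA.
Areg: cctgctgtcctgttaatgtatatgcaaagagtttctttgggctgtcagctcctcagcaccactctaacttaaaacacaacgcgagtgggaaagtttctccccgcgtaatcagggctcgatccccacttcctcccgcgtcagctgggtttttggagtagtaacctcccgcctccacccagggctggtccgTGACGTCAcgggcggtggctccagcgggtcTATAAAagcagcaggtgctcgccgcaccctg
Btc: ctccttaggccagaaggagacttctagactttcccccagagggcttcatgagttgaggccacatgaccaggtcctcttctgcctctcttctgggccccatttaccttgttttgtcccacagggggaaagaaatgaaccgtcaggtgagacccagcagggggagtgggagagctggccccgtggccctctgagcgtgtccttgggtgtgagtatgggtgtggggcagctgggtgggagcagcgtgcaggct
Areg held a cyclic AMP response element beginning 61 bases before its start and a TATA box beginning 31 bases before it. The Btc window held neither, and neither window held the AP-1 letters TGANTCA; both strands were searched. Over 32851 promoter windows of the same length, 1.55% held the cyclic AMP response element, 12.4% the TATA box and 6.75% the AP-1 letters. The windows of Tgfa, Egfr and Erbb2 held none of these letters. A match describes the letters only, and its use was not tested.

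**Figure D1:**
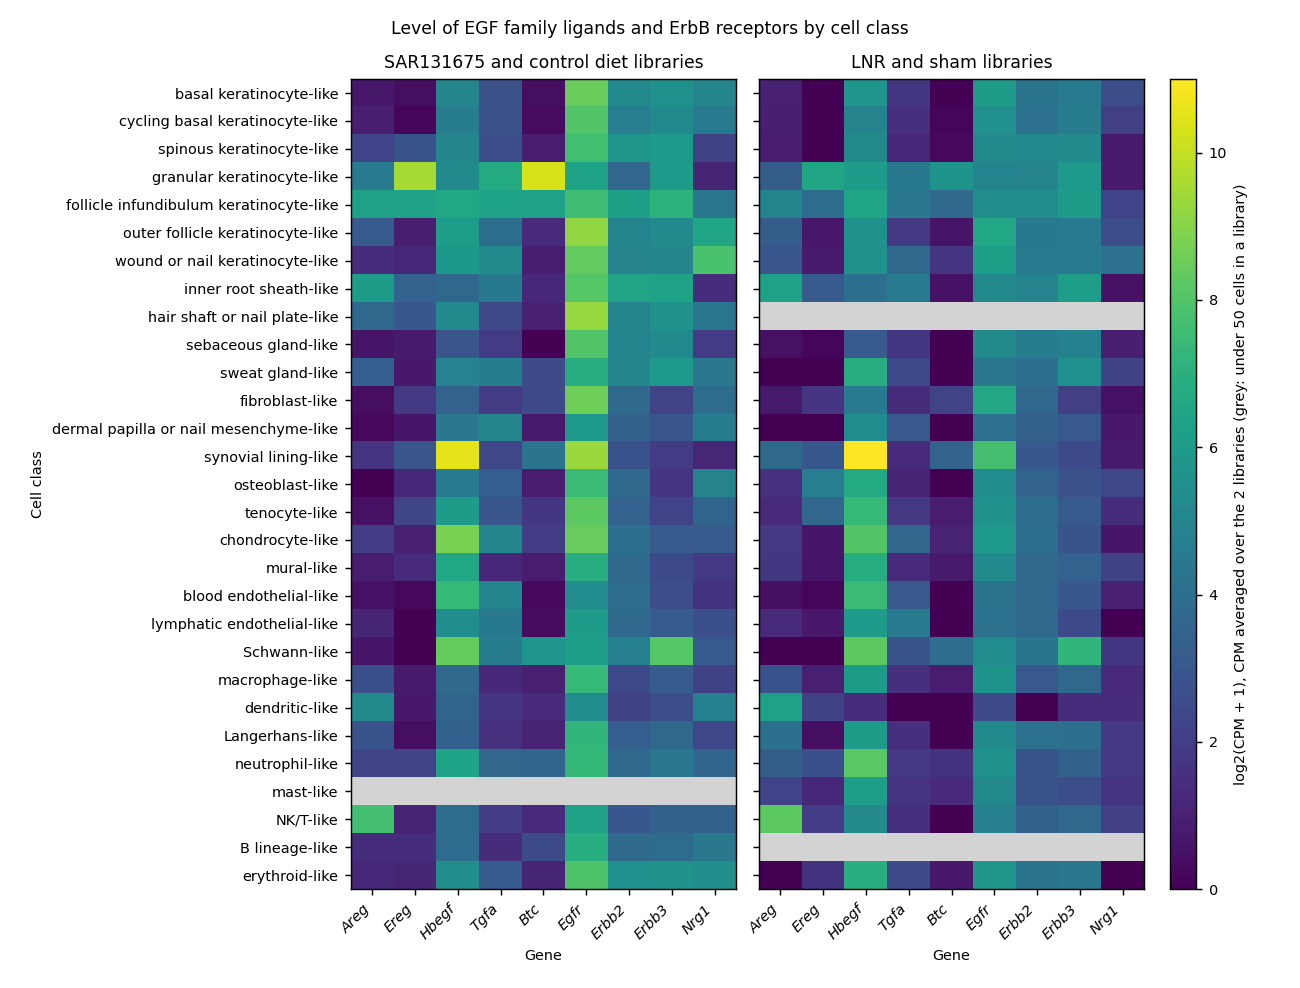
Level of each of the 9 members (columns) in each cell class (rows), as log2(CPM + 1) of the mean CPM of the SAR131675 and control diet libraries (left) and of the LNR and sham libraries (right), with grey for classes under 50 cells in a library. Areg stood highest in the NK/T class, Ereg and Btc in the granular class, Hbegf and Egfr in the synovial lining class, Erbb3 in the Schwann class and Nrg1 in the wound or nail keratinocyte class.

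Hbegf, the heparin-binding ligand, was led by the synovial lining class, the cells that line the joint and secrete lubricin. Its level there was 1219 CPM (1193 to 1246) in SAR131675, 1803 CPM (1767 to 1840.2) in control diet, 2059.5 CPM (2026 to 2094) in LNR and 1943 CPM (1910.4 to 1976) in sham, with exact 95% Poisson intervals that cover counting error only. All 4 libraries placed this class above every other, and its range did not overlap that of any other named class. In the SAR131675 experiment chondrocytes came next, at 428, 463, 246 and 289 CPM in the 4 libraries. In the LNR experiment Schwann cells, neutrophils and chondrocytes followed, each overlapping in range with its neighbour in that order. This class held 1.96%, 1.95%, 4.80% and 4.69% of all UMIs but 37.1%, 44.6%, 63.4% and 63.5% of the Hbegf UMIs. Its part of the Hbegf RNA was thus out of proportion to its size in every library.

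The signal was spread over the class rather than held by few cells. A UMI of Hbegf was found in 79.1%, 82.7%, 87.0% and 87.6% of synovial lining cells, and in 52.4%, 62.0%, 71.2% and 69.8% after each cell was thinned to 1500 UMIs. In NK/T cells, given for comparison, the thinned shares were 3.02%, 0.637%, 1.69% and 4.32%. T cells can make HBEGF, so this is no strict background. The median UMIs per cell were 15402, 14166, 8031 and 7870 in the synovial lining class and 5665, 5498, 2290 and 2122 in the NK/T class.

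Beyond the joint lining, Hbegf was present in Schwann cells at 332, 347, 335 and 263 CPM and in blood endothelial cells at 155, 174, 189 and 166 CPM. Tenocytes held 67.5, 65.8, 158 and 173 CPM, so that the LNR and sham libraries stood above the other 2 in this class. Neutrophils held 17.9, 149, 334 and 246 CPM, and in the control diet library 62 of 80 of these UMIs came from 2 cells. Levels in dendritic cells were low, at 7.56, 13.9, 1.71 and 1.5 CPM. Summed markers of the synovial lining were found in other classes too. They reached 50643, 60011, 34306 and 32386 CPM in chondrocytes, 941, 450.4, 18801 and 8322 CPM in neutrophils and 256, 177, 7603 and 5659.9 CPM in Schwann cells. Their part in the Hbegf of these classes was not tested.

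Areg, the amphiregulin gene, had its highest level in the NK/T class, the lymphocytes of the digit. The level was 251 CPM (228 to 276) in SAR131675, 161 CPM (138 to 188) in control diet, 351 CPM (312 to 394) in LNR and 248 CPM (214 to 286) in sham. The class led in every library, and held 16.1%, 11.4%, 26.0% and 20.1% of all Areg UMIs with only 0.495%, 0.383%, 0.582% and 0.509% of the UMIs of all genes. A UMI of Areg was found in 24.1%, 16.3%, 28.9% and 21.6% of NK/T cells and, thinned to 1500 UMIs, in 14.7%, 9.55%, 27.0% and 19.1%. Thinning left out 9, 9, 40 and 56 of 241, 166, 218 and 218 cells as too shallow. In the erythroid class the thinned share was 0 in every library and the level 0 to 2.36 CPM.

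Areg was also found in keratinocytes of the hair follicle. The inner root sheath class held 88.5, 39.0, 71.4 and 84.9 CPM and the follicle infundibulum class, the funnel at the top of the follicle, 70.6, 82.9, 23.8 and 37.3 CPM. The infundibulum stood higher in both libraries of the SAR131675 experiment, and the granular class at 21.4, 24.9, 10.2 and 6.54 CPM did so too. Dendritic cells held 35.7, 33.7, 109 and 47.9 CPM, with the LNR library apart from the other 3. Epidermis, follicle and glands together held 75.1%, 79.3%, 35.6% and 52.5% of the Areg UMIs and 74.7%, 75.1%, 58.1% and 64.1% of all UMIs.

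Ereg and Btc, the epiregulin and betacellulin genes, shared the granular class, the outermost living layer of the epidermis. Ereg reached 736 CPM (713 to 759) in SAR131675, 726 CPM (706 to 746) in control diet, 76.9 CPM (69.1 to 85.2) in LNR and 97.1 CPM (88.6 to 106) in sham. This class held 1.60%, 2.58%, 3.29% and 3.25% of all UMIs and 74.0%, 79.8%, 51.7% and 53.4% of the Ereg UMIs. In every library it exceeded the follicle infundibulum, the next keratinocyte class, at 72.2, 86.0, 5.26 and 22.4 CPM. Basal cells held 0 to 0.388 CPM and spinous cells 0 to 7.56 CPM, below the granular class in each library.

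Btc in the granular class stood at 1508 CPM (1475 to 1541) in SAR131675, 1055 CPM (1030.4 to 1079) in control diet, 48.3 CPM (42.3 to 55.1) in LNR and 52.9 CPM (46.7 to 59.8) in sham. Its concentration in this class was of the same kind, with 87.7%, 90.1%, 47.3% and 49.5% of its UMIs. In the sham library 132 of 259 of the Btc UMIs lay in 2 cells, against 635 of 8170 in SAR131675. Both genes were thus led by granular cells in all 4 libraries, at higher levels in the SAR131675 experiment, where the granular markers were higher too. Btc in basal and spinous cells did not exceed 0.949 CPM in any library.

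After thinning to 1500 UMIs, Ereg was found in 41.9%, 47.4%, 9.97% and 7.41% of granular cells and Btc in 30.9%, 25.9%, 5.15% and 3.09%. NK/T cells gave thinned shares of 0%, 0%, 1.12% and 0% for Ereg and 0%, 0%, 0% and 0% for Btc. Median depth in the granular class was 20205, 17176, 16456 and 15164 UMIs. The share of granular cells with a UMI of both genes was 14.8% (10.9% to 19.3%) in SAR131675, 15.7% (12.3% to 19.6%) in control diet, 3.09% (1.42% to 5.79%) in LNR and 1.85% (0.683% to 3.99%) in sham. The products of the single shares were 12.9%, 12.3%, 0.514% and 0.229%. In the LNR and sham libraries the interval of the joint share lay above the product. That interval covers the counting of cells within a library only, and the product was given none. The granular class of these libraries held more spinous than granular markers, and the part of such mixing in the joint share was not tested.

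Outside the epidermis the 2 genes parted. Ereg was found in osteoblasts at 1.71, 1.00, 26.1 and 23.7 CPM, high only in the LNR and sham libraries. Btc was found in Schwann cells at 79.1, 27.9, 11.2 and 16.9 CPM and in the synovial lining at 17.1, 18.4, 11.1 and 9.90 CPM. These levels lay far below that of the granular class in the SAR131675 experiment and nearer to it in the LNR experiment.

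Tgfa, the transforming growth factor alpha gene, was led by the upper epidermis in the SAR131675 experiment. The granular class held 102, 114, 21.1 and 20.6 CPM and the follicle infundibulum 71.9, 90.5, 18.3 and 22.6 CPM. The wound or nail keratinocytes, which carry keratins 6, 16 and 17, held 35.6, 37.4, 13.04 and 10.6 CPM. Basal cells held 5.24, 5.89, 2.51 and 2.08 CPM and spinous cells 5.48, 5.08, 1.44 and 1.39 CPM, so both stood below the granular class in every library. Cycling basal cells, a class of their own, held 1.46 to 5.99 CPM. In LNR and sham the order of the upper classes was not firm, since the lymphatic endothelial class led in LNR at 29.5 CPM and the inner root sheath class in sham at 31.0 CPM, from 42 and 34 UMIs. NK/T cells held 1.31 to 2.98 CPM.

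**Figure D2:**
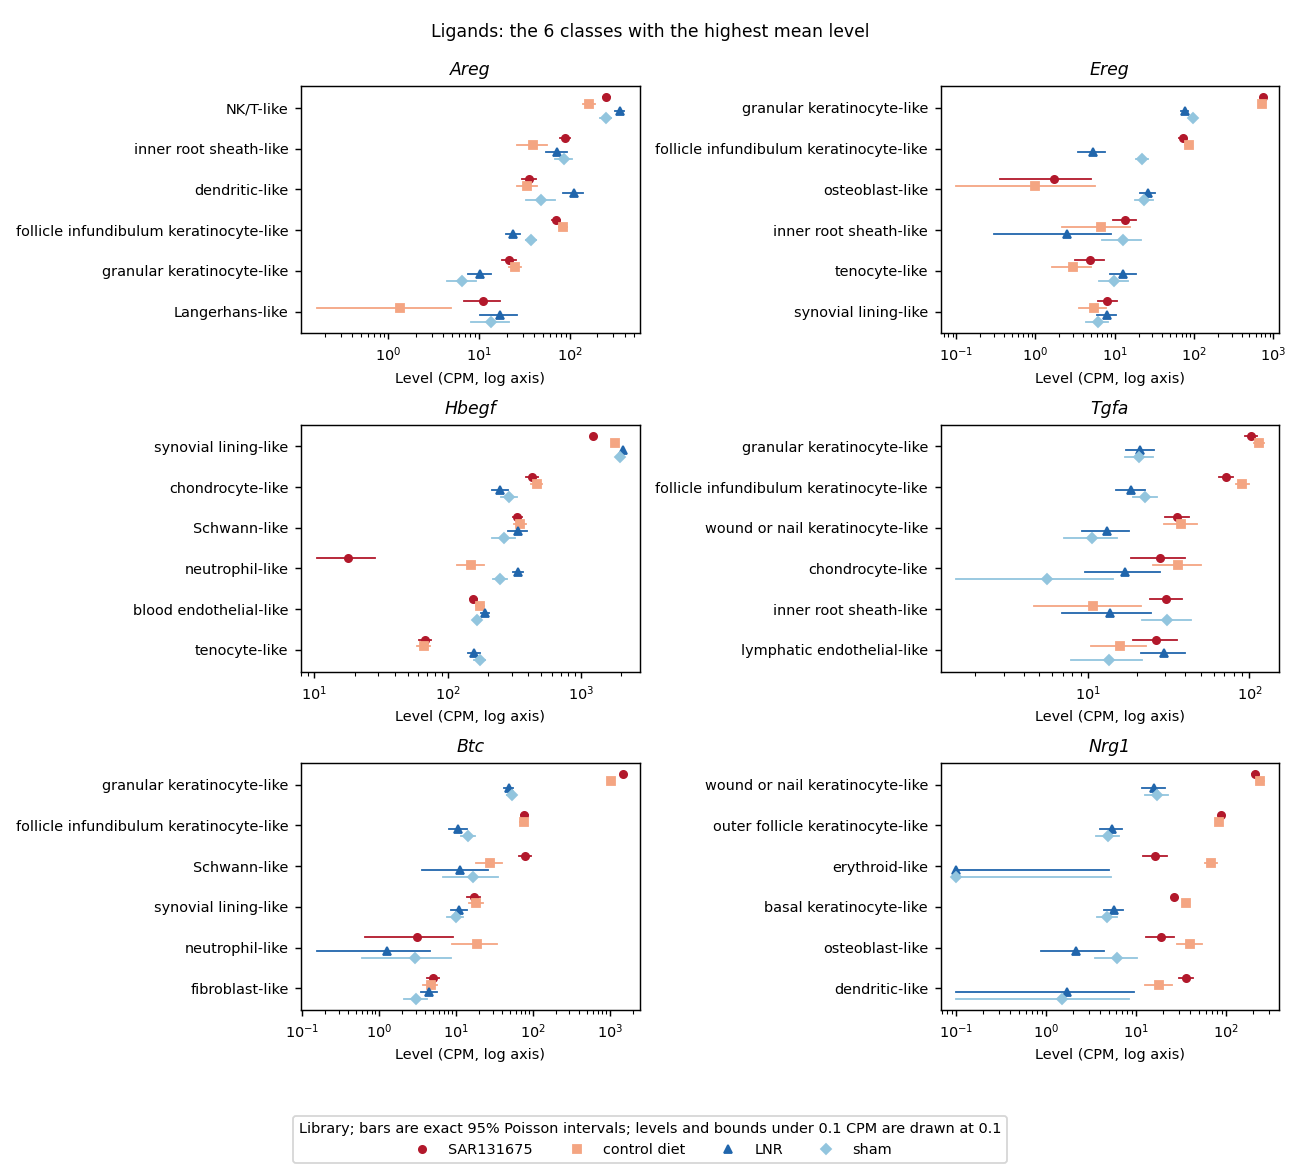
Levels of the 6 ligands in the 6 classes with the highest means, in CPM on a log axis, 1 point per library with the exact 95% Poisson interval as a bar; values under 0.1 CPM are drawn at 0.1. In the granular class for Ereg, Btc and Tgfa and in wound or nail keratinocytes for Nrg1, the points of SAR131675 and control diet lie above those of LNR and sham; for Hbegf in the synovial lining all 4 lie between 1219 and 2059.5 CPM.

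Nrg1, the ligand of ERBB3 and ERBB4, was led by wound or nail keratinocytes in all 4 libraries. Wound or nail keratinocytes held 209.9 CPM (196 to 225) in SAR131675, 242 CPM (220.3 to 264) in control diet, 15.9 CPM (11.6 to 21.2) in LNR and 17.1 CPM (12.6 to 22.8) in sham. The outer follicle class held 88.8, 85.2, 5.36 and 4.92 CPM and was second among named classes in the SAR131675 experiment, while in the LNR experiment it did not differ from the basal class beyond the ranges. The unnamed cells held more in the SAR131675 experiment, at 112, 128, 3.35 and 6.00 CPM, and other mesenchymal cells held 92.3, 74.2, 4.23 and 4.31 CPM. Within the epidermis basal cells held 26.7, 36.5, 5.69 and 4.78 CPM and spinous cells 4.23, 2.88, 0.929 and 0.588 CPM. Granular cells held 1.11, 1.31, 0.639 and 0.818 CPM, below spinous cells except in sham. The basal class stood above the spinous and granular classes in all 4 libraries, where Ereg, Btc and Tgfa were highest in the granular class. Thinned shares of wound or nail keratinocytes with a UMI were 18.9%, 28.7%, 1.87% and 2.12%, against 0.862%, 0.637%, 0.562% and 0.617% of NK/T cells. The high values of Nrg1 rest on the SAR131675 experiment: LNR and sham held 404 and 462 Nrg1 UMIs in all cells, against 8800 and 6457.

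Egfr, the receptor of the first group of ligands, had its highest level in the synovial lining, at 610.0 CPM (591 to 629) in SAR131675, 679 CPM (657 to 702) in control diet, 204 CPM (194 to 215) in LNR and 223 CPM (212 to 234) in sham. Outer follicle keratinocytes followed at 544, 606, 101 and 92.6 CPM, and fibroblasts held 337, 424, 99.5 and 96.8 CPM. Hair shaft or nail plate cells were resolved in the SAR131675 experiment alone, where Egfr stood at 603 and 636 CPM and overlapped the range of the synovial lining. In the LNR experiment the synovial lining stood apart from the next class, and fibroblasts and outer follicle cells overlapped.

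Within the epidermis Egfr declined towards the surface. Basal cells held 346, 370.1, 63.5 and 64.2 CPM, spinous cells 199, 203, 35.3 and 37.8 CPM and granular cells 74, 91.9, 31.3 and 29.6 CPM. The order was the same in all 4 libraries, so that the receptor RNA was lowest in the layer where Ereg, Btc and Tgfa were highest. Cycling basal cells, at 244, 269, 48.7 and 44.1 CPM, stood below the other basal cells in each library. Low levels were found in dendritic cells, at 47.4, 31.0, 3.42 and 5.98 CPM, and in blood endothelium, at 42.8, 33.6, 18.2 and 17.7 CPM.

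Egfr and Hbegf RNA lay in the same synovial lining cells. The thinned share with Egfr was 56.0%, 59.4%, 25.2% and 27.3% in this class and 6.03%, 6.37%, 1.69% and 3.09% in NK/T cells. Cells with a UMI of both genes made up 30.5%, 36.6%, 18.9% and 20.6% of the class, and the products of the single shares were 29.4%, 36.8%, 18.0% and 19.0%. The 2 were close in each library, so joint detection was near what the single shares give.

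Erbb2, the receptor without a ligand, was led by epithelial classes. The follicle infundibulum held 76.2, 70.4, 39.6 and 41.7 CPM and the inner root sheath 69.3, 101, 28.8 and 30.1 CPM. Spinous cells held 57.2, 55.3, 32.3 and 35.2 CPM and basal cells 35.6, 36.4, 17.6 and 17.9 CPM, and spinous cells were higher in each library. Granular cells held 11.3, 11.5, 31.5 and 26.6 CPM: they were below basal cells in the SAR131675 experiment and above them in the LNR experiment, where the granular class held more spinous than granular markers. NK/T cells held 3.61 to 15.7 CPM and dendritic cells 0 to 3.78 CPM. Schwann cells, at 18.0 to 27.9 CPM, lay within the range of basal cells, and fibroblasts held 11.8 to 13.2 CPM. The infundibulum and the inner root sheath overlapped in range in the SAR131675 experiment. Epidermis, follicle and glands held 90.5%, 90.6%, 74.1% and 79.4% of all Erbb2 UMIs. These classes also supplied most UMIs of all genes, at the shares given above with Areg.

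Erbb3, the neuregulin receptor, was led by Schwann cells, the glia of peripheral nerve. The level there was 247 CPM (224 to 272) in SAR131675, 293 CPM (260.1 to 328) in control diet, 164 CPM (128 to 206) in LNR and 138 CPM (104 to 178) in sham. This class led in all 4 libraries. The follicle infundibulum at 132, 139.6, 64.5 and 64.1 CPM came next in the SAR131675 experiment, and the inner root sheath at 73.5, 86.0, 71.4 and 67.6 CPM in the LNR experiment. A UMI was found in 32.3%, 34.3%, 19.7% and 23.9% of Schwann cells after thinning, which left out 31, 24, 73 and 82 of 300, 190, 149 and 149 cells. Thinned shares in NK/T cells were 2.16%, 1.27%, 0.562% and 2.47%, and median depth was 4704, 4359, 1508 and 1404 UMIs in the Schwann class.

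Most Erbb3 RNA nevertheless lay in epithelium, which held 92.2%, 93.4%, 83.3% and 85.7% of the UMIs and supplied 74.7%, 75.1%, 58.1% and 64.1% of the UMIs of all genes. Granular cells held 62.9, 59.1, 57.1 and 63.8 CPM, spinous cells 59.1, 61.4, 36.2 and 34.6 CPM and basal cells 45.5, 44.8, 22.1 and 20.9 CPM. The basal layer was lowest of the 3 in each library. Fibroblasts and the synovial lining, both rich in Egfr, held 2.95 to 4.11 CPM and 2.40 to 4.81 CPM of Erbb3. Schwann cells held little Nrg1 of their own, at 0.995 to 14.3 CPM.

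**Figure D3:**
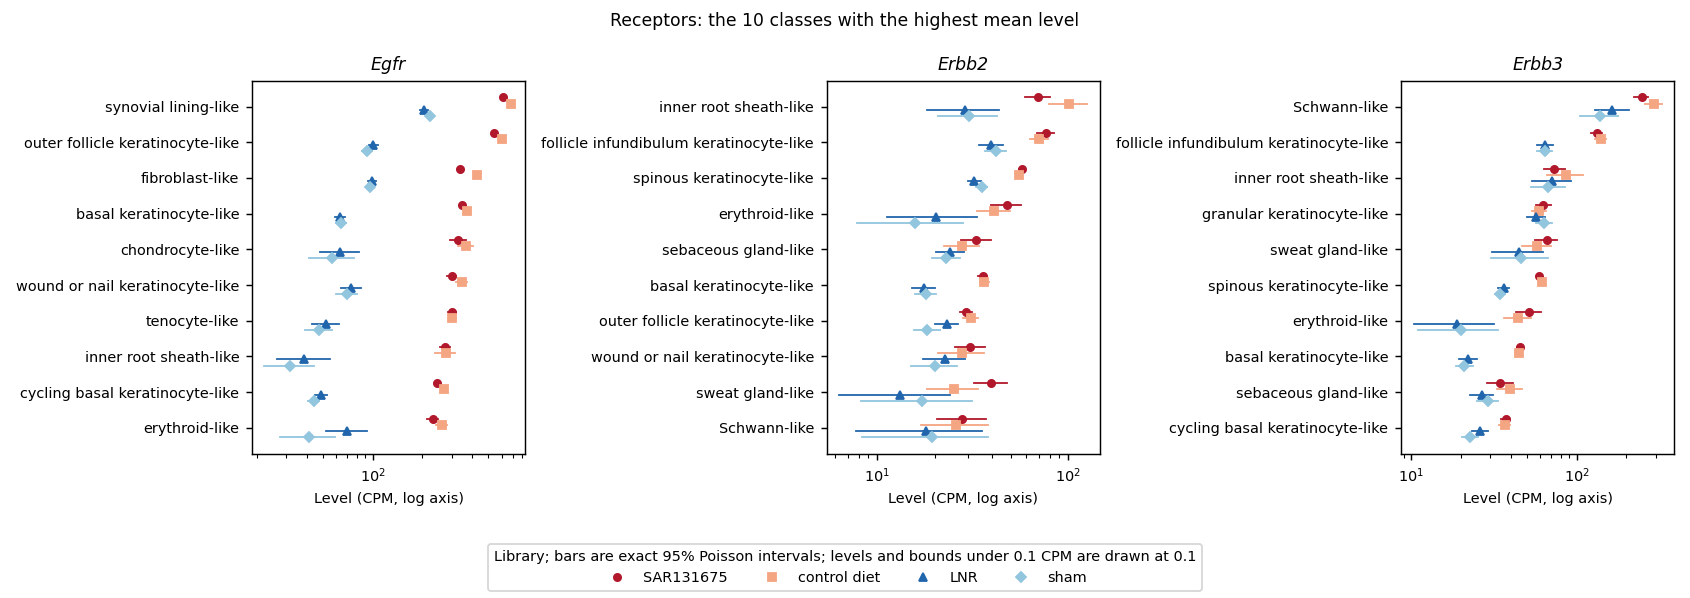
Levels of Egfr, Erbb2 and Erbb3 in the 10 classes with the highest means, in CPM on a log axis, 1 point per library with the exact 95% Poisson interval as a bar; values under 0.1 CPM are drawn at 0.1. Egfr stands highest in the synovial lining (204 to 679 CPM) and Erbb3 in Schwann cells (138 to 293 CPM), while the Erbb2 values of its leading classes lie close together.

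**Figure D4:**
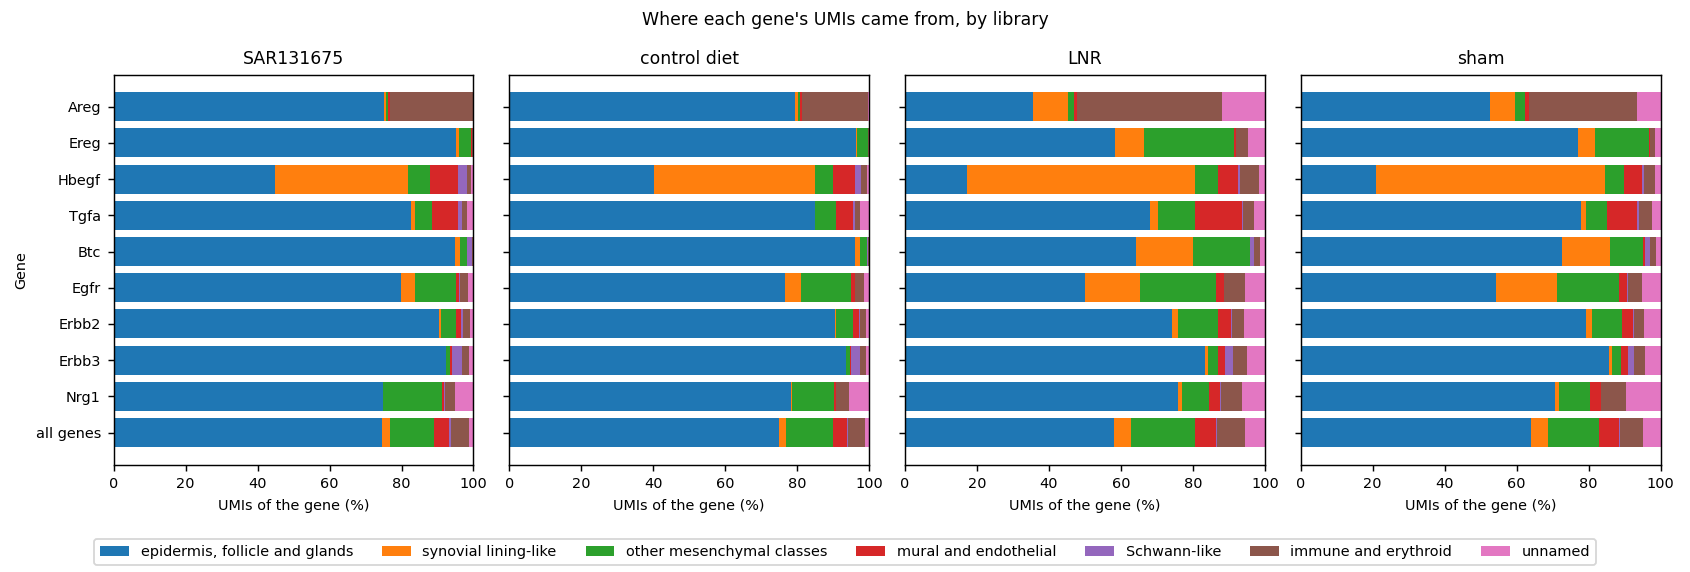
Share of each member's UMIs (percent, horizontal axis) held by each group of classes (colours), in 1 panel for each of the 4 libraries, with the share of the UMIs of all genes as the lowest bar. Hbegf is the member with the largest part in the synovial lining (37.1% to 63.5%), Areg the one with the largest part in immune and erythroid classes (18.6% to 40.2%).

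Detection of other pairs in the same cell was set beside the products of the single shares in the same way. Hbegf and Erbb3 were both found in 12.6%, 15.1%, 3.95% and 10.4% of Schwann cells, with products of 11.8%, 12.2%, 5.45% and 7.84%. Erbb2 and Erbb3, partners in the receptor for NRG1, were both found in 0.577%, 0.564%, 0.0642% and 0.167% of basal cells, with products of 0.332%, 0.371%, 0.0835% and 0.1%.

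The genes whose profile was most like each member were named by Pearson's r of log2(CPM + 1) over 116 values, 29 classes in each of 4 libraries, among 14372 genes. These points share libraries and depth, and the values are descriptions. Areg was most like Leprotl1 (0.70), Trbc1 (0.70), a constant chain gene of the T cell receptor, and Il18r1 (0.67), the interleukin-18 receptor. Ereg was most like Tmprss11f (0.77), Rnf222 (0.76) and Gm57126 (0.76). Btc was most like Flg2 (0.77), Kprp (0.76) and Lce3c (0.76), all genes of the cornified envelope or late epidermis. Hbegf was most like Cpe, Vwa1 and Tspan15, each at 0.68, and Tspan15 is in the marker list that named the synovial lining. Tgfa was most like Ip6k2 (0.73), Tead4 (0.73) and Lmo7 (0.71), and Nrg1 was most like Prickle2 (0.74), Mid1 (0.73) and Tcf20 (0.72). The list for Btc thus held late epidermal genes and that for Areg a T cell gene. Among receptors, Egfr was most like Ifitm10 (0.82), Npas2 (0.81) and Nmnat3 (0.80), Erbb2 like Emp2 (0.86), Ptprf (0.82) and Kif21a (0.81), and Erbb3 like Kmt5a (0.87), Myh14 (0.84) and Celsr2 (0.84). Among the members themselves, r was 0.72 between Erbb2 and Erbb3 and 0.69 between Ereg and Btc. These r pool both experiments and so include the offset between them. Within the SAR131675 and the LNR experiment alone, r of Egfr was 0.73 and 0.62 with Ifitm10, 0.55 and 0.65 with Npas2, and 0.56 and 0.53 with Nmnat3. Likewise r of Nrg1 was 0.65 and 0.42 with Prickle2, 0.65 and 0.37 with Mid1, and 0.60 and 0.37 with Tcf20.

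The remaining ligands and the fourth receptor of the family had places of their own. Nrg4 stood highest in the sebaceous gland, at 355, 439, 85.5 and 96.5 CPM, and Nrg2 in the dermal papilla or nail mesenchyme at 92.7, 84.8, 70.6 and 61.6 CPM. Nrg3 was found in the dermal papilla or nail mesenchyme at 484, 382, 0 and 0 CPM, and so was detected there in the SAR131675 experiment alone. Epgn, the epigen gene beside Ereg, stood at 24.3, 31.8, 7.75 and 8.02 CPM in wound or nail keratinocytes. Erbb4 was led by the sweat gland, at 87.8, 111, 11.8 and 6.83 CPM.

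Genes that process or restrain the signal were broad. Adam10, a sheddase, was highest in Schwann cells in the SAR131675 experiment, at 479.8 and 478.7 CPM, and in lymphatic endothelium in the LNR experiment, at 275 and 258 CPM. Errfi1, which encodes an inhibitor of EGFR kinase, stood at 2175, 2035, 542 and 597 CPM in chondrocytes and 1199.7, 1531, 1204 and 1215 CPM in the synovial lining. Lrig1, a negative regulator of the receptors, stood at 326, 294, 67.5 and 78.0 CPM in the follicle infundibulum. Of the feedback genes, Dusp5 led in neutrophils of the SAR131675 experiment at 507 and 506 CPM, and Spry1 in the dermal papilla or nail mesenchyme of the LNR experiment at 259 and 251 CPM. The adaptor Grb2 was highest in Langerhans cells of the SAR131675 experiment, at 436 and 364 CPM, and in dendritic cells of the LNR experiment, at 186 and 177 CPM. Of the ERK target genes, Ier3 led in blood endothelium in both experiments, at 1083 and 1102 and at 1423 and 1358 CPM. Of the immediate early genes, which tissue digestion also raises, Fos led in Schwann cells of the SAR131675 experiment at 2561 and 3286 CPM and in mast cells of the LNR experiment at 4869 and 4778 CPM. The summed level of the 10 immediate early genes over all cells was 2853, 2808, 5337 and 4719 CPM, and it was 4404, 4648, 7216 and 7263 in the synovial lining, 4439, 4113, 5774 and 5535 in NK/T cells and 2465, 2466, 1698 and 1727 in the granular class. Hbegf and Areg are inducible genes too, and the part of digestion in their levels was not tested.

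The effect of the treatments was read as the log2 ratio of treated to control CPM within each class, with exact intervals for counting error. A combination of gene and class was used when it held at least 20 UMIs in the 2 libraries together, and 1.5-fold in either direction was the size rule. For SAR131675 against control diet, 51 of 202 combinations of member and class lay past 1.5-fold, or 25.2%, 35 of them higher and 16 lower, against 14.1% of 366446 combinations over all genes. With at least 100 UMIs, 18 of 134 did, or 13.4%, against 5.11% of all genes. For LNR against sham, 33 of 160 lay past 1.5-fold, or 20.6%, 19 higher and 14 lower, against 12.8% of 300436. With at least 100 UMIs this was 10 of 84, or 11.9%, against 3.17%. When cells were classed one by one from their markers, 16 of 83 combinations (19.3%) lay past the rule in the SAR131675 experiment, against 15.9% over all genes, and 17 of 72 (23.6%) in the LNR experiment, against 11.9%. When cells with markers of another lineage were left out, these counts were 10 of 80 (12.5%), against 12.9%, and 16 of 76 (21.1%), against 12.3%. In the SAR131675 experiment the members' share was thus no higher than that of all genes under the latter setting. The members' median log2 ratios were -0.01 and 0.06, against -0.03 and about 0 over all genes. Classes of 1 gene are not independent of each other, and no replicate bears on any of these differences.

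In the classes that led each member, ratios lay inside 1.5-fold for the values given next. In synovial lining cells Hbegf was lower in SAR131675 by a log2 ratio of -0.56 (-0.61 to -0.52), just inside 1.5-fold, and the LNR ratio was 0.08 (0.05 to 0.12). The Egfr ratios in the same class were -0.15 (-0.22 to -0.09) and -0.13 (-0.23 to -0.02). In the granular class the ratio of Ereg was 0.02 (-0.04 to 0.08) in SAR131675 and -0.34 (-0.54 to -0.14) in LNR, and that of Btc was 0.52 (0.47 to 0.56) and -0.13 (-0.39 to 0.13). The Btc ratio of SAR131675 spanned -0.48 to 0.67 over the other ways of processing, so its direction was not firm. Erbb3 in Schwann cells had ratios of -0.25 (-0.46 to -0.03) and 0.25 (-0.27 to 0.78), and Nrg1 in wound or nail keratinocytes -0.20 (-0.37 to -0.04) and -0.11 (-0.73 to 0.51).

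Areg in NK/T cells was higher on the treated side in both experiments. The SAR131675 ratio was 0.64 (0.37 to 0.91), past 1.5-fold, and the LNR ratio 0.50 (0.23 to 0.77), short of it. These values rest on 422, 164, 292 and 190 UMIs in 241, 166, 218 and 218 cells of the 4 libraries. In the control diet library 62 of 164 of the UMIs lay in 2 cells, against 61 of 422 in SAR131675. Summed markers of other classes in the NK/T class differed in both directions. In SAR131675 against control diet they were 154 against 32.5 CPM for the outer follicle and 179 against 66.9 for blood endothelium. Spinous markers were 5728 against 4109, but Langerhans markers 111 against 164 and erythroid markers 115 against 2716. In LNR against sham, erythroid markers were 2283 against 44.4 CPM and fibroblast markers 3364 against 3657. In SAR131675 and control diet, Areg itself stood at 9.03 and 6.71 CPM in the outer follicle class. It stood at 3.49 and 3.66 CPM in spinous cells and at most at 0.68 CPM in blood endothelium. The part of these markers in the ratios was not tested. Over the other ways of processing the ratio spanned 0.32 to 1.12 in SAR131675 and 0.24 to 0.75 in LNR.

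Keratinocytes gave larger ratios at lower levels. In the SAR131675 library, Areg in the inner root sheath stood at 88.5 against 39.0 CPM from 235 and 29 UMIs, a ratio of 1.18 (0.62 to 1.79). In the keratinocytes that fitted no named class, Areg stood at 10.8 against 3.10 CPM from 622 and 116 UMIs, a ratio of 1.80 (1.51 to 2.10), and Ereg at 4.79 against 1.31 CPM from 276 and 49 UMIs. In the LNR library, the follicle infundibulum held less Ereg, 5.26 against 22.4 CPM from 27 and 131 UMIs, a ratio of -2.09 (-2.74 to -1.48), and less Areg, with a ratio of -0.65 (-0.98 to -0.32). The ratio of Ereg there spanned -2.19 to -1.80 over the other ways of processing. Spinous cells of SAR131675 held less Ereg, with a ratio of -0.65 (-0.85 to -0.45), and more Btc, with a ratio of 0.63 (0.05 to 1.23), and the latter changed sign in 1 of the other ways of processing. The largest Btc ratio of SAR131675 was that in Schwann cells, 79.1 against 27.9 CPM from 133 and 28 UMIs, a ratio of 1.5 (0.91 to 2.15), and 48 of the 133 UMIs lay in 2 cells.

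Nrg1 lay past 1.5-fold in 11 of its 22 classes in SAR131675, 8 higher and 3 lower, Ereg in 7 of 12 and Tgfa in 9 of 24, against the 14.1% over all genes. Counting intervals excluded 0 in 8, 4 and 7 of these classes. Egfr, by contrast, had 1 class higher and 1 lower of 31. In LNR the classes past 1.5-fold were 3 of 10 for Nrg1, 3 of 9 for Ereg, 4 of 15 for Tgfa and 9 of 16 for Areg, against 12.8%. Intervals excluded 0 in 2, 3, 3 and 6 of them. The share over all genes with such intervals is not given. In fibroblasts of SAR131675 Nrg1 stood at 20.02 against 7.39 CPM from 467 and 142 UMIs, a ratio of 1.44 (1.16 to 1.72). In the dermal papilla or nail mesenchyme it stood at 40.1 against 9.08 CPM from 116 and 12 UMIs, a ratio of 2.14 (1.28 to 3.14). In the LNR experiment fibroblasts held 6 and 6 Nrg1 UMIs, too few for a ratio. Markers of wound or nail keratinocytes in the fibroblast class summed to 41.9, 26.8, 59.3 and 44.7 CPM, and basal keratinocyte markers to 847, 874, 773 and 788 CPM. Their part in the Nrg1 difference was not tested. In erythroid cells Nrg1 was lower, 16.5 against 68.5 CPM from 42 and 174 UMIs, a ratio of -2.05 (-2.57 to -1.56).

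By the rule of at least 20 UMIs, the 3 receptors had 6 combinations higher and 3 lower of 87 in SAR131675. In LNR they had 5 higher and 1 lower of 76. Over all genes 6.65% were higher and 7.47% lower in SAR131675, and 6.32% and 6.46% in LNR. The receptor ratios past 1.5-fold with at least 100 UMIs are given next. In SAR131675 they were Erbb2 in the sweat gland, 0.65 (0.12 to 1.2), Egfr in dendritic cells, 0.61 (0.17 to 1.07), and Egfr in lymphatic endothelium, -0.77 (-1.19 to -0.36). The last value belongs to the cells that carry VEGFR3, the target of the drug, and rests on 47.9 against 81.9 CPM from 78 and 140 UMIs. It spanned -1.88 to 0.18 over the other ways of processing, and Egfr in dendritic cells -0.32 to 1.08, so neither direction was firm. Markers of other classes differed too: spinous markers in the sweat gland class summed to 8214 CPM in SAR131675 against 3170.3 in control diet, and granular markers to 558 against 152. In lymphatic endothelium spinous markers summed to 2365 against 4397 CPM and synovial lining markers to 591 against 1225 CPM. Their part in the receptor ratios was not tested. In LNR the only such ratio was Egfr in neutrophils, 0.66 (0.10 to 1.25), where summed markers of the synovial lining stood at 18801 and 8322 CPM.

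Hbegf lay past 1.5-fold in 7 of 29 classes of the LNR experiment, 4 higher and 3 lower, against 12.8% of combinations over all genes. In each of the 7, the summed markers of the synovial lining, the class richest in Hbegf, differed in the same direction. The markers are not given for the classes inside 1.5-fold, so there is no rate to set beside this. In erythroid cells the Hbegf ratio was 2.71 (2.06 to 3.42), and the summed synovial markers were 7486 CPM in LNR against 237 CPM in sham. In Langerhans cells the ratio was 0.84 (0.37 to 1.32), with 3547 and 1829.7 CPM. Osteoblasts had a ratio of 0.60 (0.35 to 0.85), with 2668 and 1534 CPM. Wound or nail keratinocytes had 0.66 (0.29 to 1.03), with 530.1 and 52.5 CPM. In the sweat gland Hbegf was lower, -0.69 (-1.18 to -0.20), and so were the markers, 1386 against 5508 CPM. Mast cells had a ratio of -1.03 (-1.79 to -0.28), with 1747 and 2359 CPM of these markers, and the sebaceous gland -0.78 (-1.43 to -0.16), with 99.0 and 217 CPM. In SAR131675 Hbegf also lay past 1.5-fold in 7 of 30 classes, 4 higher and 3 lower, against 14.1% over all genes. The markers went the other way in 3 of the 7. In neutrophils Hbegf was 17.9 against 149 CPM from 17 and 80 UMIs, with 941 against 450.4 CPM of the markers. In dendritic cells the ratio was -0.88 (-1.72 to -0.04), with 75.3 and 53.4 CPM, and in osteoblasts 1.14 (0.27 to 2.10), with 592 and 643 CPM. Under other processing the sweat gland ratio of LNR became 0.43 with per-cell means, 0.20 with thinning and 0.14 without cells with markers of another lineage, and leaving those cells out turned that of wound or nail keratinocytes to -0.41. The part of these markers in the Hbegf ratios was not tested.

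**Figure D5:**
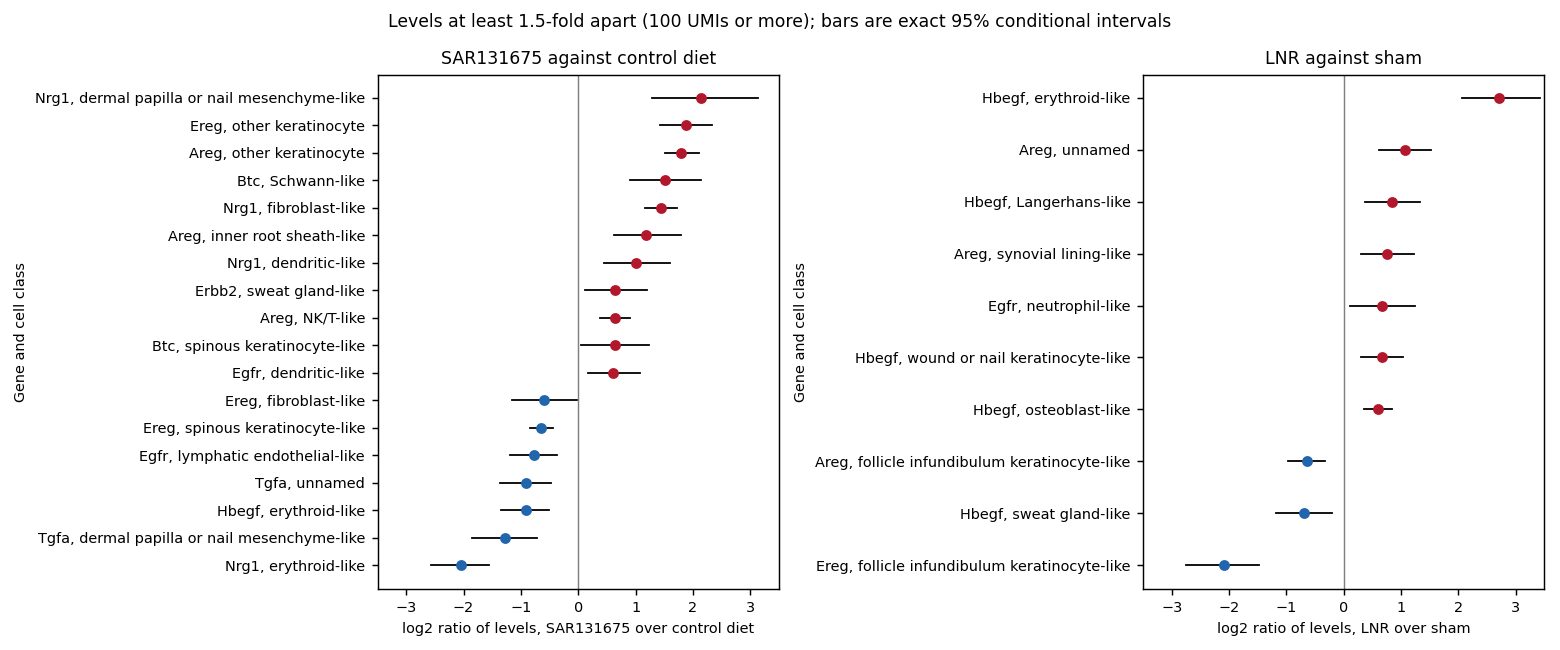
Log2 ratio of treated to control CPM (horizontal axis) for the combinations of member and class past 1.5-fold with at least 100 UMIs, 18 for SAR131675 against control diet (left) and 10 for LNR against sham (right), with exact 95% intervals for counting error. Points in red are higher and points in blue lower in the treated library, and they run from -2.05 to 2.14 on the left and from -2.09 to 2.71 on the right.

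The other pathway genes were counted by the same 1.5-fold rule, against 6.65% of all combinations higher and 7.47% lower in SAR131675, and 6.32% and 6.46% in LNR. In SAR131675, the 8 MAPK feedback genes had 10 combinations higher and 21 lower of 213, the 6 ERK target genes 11 and 20 of 157, and the 10 immediate early genes 13 and 11 of 310. The shedding genes had 1 higher and 5 lower of 120, the receptor attenuation genes 3 and 10 of 153, the adaptors 0 and 7 of 152, the other ligands 3 and 6 of 49, and Erbb4 3 and 3 of 13. In LNR, the MAPK feedback genes had 9 higher and 12 lower of 194, the ERK target genes 14 and 5 of 147 and the immediate early genes 11 and 1 of 300. There the shedding genes had 1 and 3 of 107, the receptor attenuation genes 8 and 8 of 143, the adaptors 6 and 8 of 143 and the other ligands 3 and 3 of 30.

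The largest ratios of these genes in SAR131675 were Epgn in the follicle infundibulum (-3.17), Dusp4 in tenocytes (-2.92), Myc in neutrophils (2.67) and Nrg3 in other keratinocytes (2.62). Next came Ier3 in B lineage cells (2.42), Erbb4 in unnamed cells (-2.22), Dusp4 in macrophages (-2.21) and Atf3 in B lineage cells (1.84). In LNR they were Dusp6 (-1.66) and Etv4 (1.59) in the sebaceous gland, Dusp5 in Schwann cells (1.57) and Spry1 in mast cells (1.41). Then followed Spry2 in the sweat gland (1.38), Errfi1 in erythroid cells (1.26), Phlda1 in lymphatic endothelium (1.18) and Epgn in unnamed cells (-1.17). These ratios were picked as the largest among combinations with at least 20 UMIs in the 2 libraries together. Their UMIs and counting intervals are not given, so they may rest on few UMIs or cells. B lineage cells numbered only 81 in SAR131675 and 54 in control diet.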

How the data were processed

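Single-cell RNA libraries of mouse digits were analysed from the deposited UMI counts (raw counts per gene and cell barcode), which the authors made with Cell Ranger; the matrix headers name version 8.0.1 for the SAR131675 and control diet libraries and 6.1.2 for the LNR and sham libraries, and the submitters' processing notes name 6.1.2 and GRCm39. Cells with 200 to 5500 genes, at most 30000 UMIs and at most 10% mitochondrial UMIs were kept, which left 29076 of 38464, 24030 of 30831, 19827 of 21669 and 20669 of 22539 barcodes (SAR131675, control diet, LNR, sham). These cells were clustered within each experiment with scanpy 1.11.5 (2000 variable genes, 50 principal components, 20 neighbours, Leiden resolution 2), leaving out the members, the other pathway genes and mitochondrial genes. Clusters were named where at least 3 of a class's markers were detected. Mixed clusters of at least 100 cells were split again at resolution 0.3, and the scoring rule for names was set after the clusters were seen. The members and lists were chosen with earlier results of these data known. Doublets stayed in; Scrublet called 4.66%, 1.52%, 6.76% and 7.18% of cells, where the rate expected from the number of cells was 23.3%, 19.2%, 15.9% and 16.5%, so leaving out called doublets may leave most of them in.

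UMIs were summed per class and library and divided by the class total to give CPM, with exact 95% Poisson intervals. Classes with at least 50 cells in a library are given. Shares of cells with a UMI were also computed with each cell thinned to 1500 UMIs. Ratios of 2 libraries carry exact conditional intervals, run on simulated Poisson counts. The simulation draws from the model that the intervals assume, so it does not bear on UMIs held by few cells. Intervals cover counting error only. With 1 library per condition no p-value was computed. All 9 members are named; other pathway genes are those with the highest level of each list and the 8 largest past 2-fold in each experiment. Genes most like a member were the top 3 by Pearson's r among genes of at least 5 CPM in some class of every library. Alternatives were resolution 0.7, no upper limits on cells, no called doublets, cells classed singly by markers, no cells with markers of another lineage, per-cell means, thinning, a fold of 2 and a minimum of 100 UMIs. Promoters came from a RefSeq table of GRCm38.p6, another build than that of the counts.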

Additional observations from a re-analysis of the deposited data

Results flagged for a closer look

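For 4 combinations of member and class, the treated library moved one way in the SAR131675 experiment and the opposite way in the LNR experiment, past 1.5-fold in both. The difference between the experiments was not tested, since each rests on 1 library per condition. These are 4 of the 152 combinations with enough UMIs in both experiments, or 2.63%, whose counting intervals both lay outside 0, and 3 others moved the same way in both. Over all genes 0.432% of 283303 combinations moved in opposite directions by this rule and 0.316% in the same direction.

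Ereg in keratinocytes of no named class had a log2 ratio of 1.87 in SAR131675, from 276 and 49 UMIs, and of -1.91 in LNR, from 8 and 53 UMIs. This class gathers the keratinocyte clusters left without a name, and clustering was done within each experiment. It held 4903, 3506, 1103 and 1677 cells (SAR131675, control diet, LNR, sham) and need not be the same cells in both experiments. Summed markers of granular keratinocytes, the class richest in Ereg, stood there at 182, 149.8, 28.4 and 649 CPM (SAR131675, control diet, LNR, sham), and spinous markers at 11477, 12571, 4404 and 12558 CPM. Hbegf in the sebaceous gland had a ratio of 1.53 in SAR131675, from 35 and 11 UMIs, and of -0.78 in LNR, from 34 and 65 UMIs, with synovial lining markers at 494, 130.1, 99.0 and 217 CPM. Tgfa in the inner root sheath had a ratio of 1.51 in SAR131675, from 81 and 8 UMIs, and of -1.17 in LNR, from 11 and 34 UMIs, and 9 of these 11 UMIs lay in 2 cells. The SAR131675 ratio of Tgfa in this class became -0.77 with per-cell means and -0.035 with cells thinned to 1500 UMIs. In LNR against sham this class held 88.9 against 468 CPM of granular markers, 2186 against 4824 CPM of spinous markers and 16796 against 32501 CPM of its own markers. In SAR131675 against control diet the granular markers were 179.7 against 153 CPM, the spinous markers 3278 against 4611 CPM and its own 42979 against 32973 CPM. The part of these markers in the ratios was not tested.

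Hbegf in erythroid cells had a ratio of -0.92 in SAR131675, from 75 and 142 UMIs, and of 2.71 in LNR, from 152 and 22 UMIs. In LNR, 66 of the 152 UMIs lay in 2 cells. Summed synovial lining markers in this class stood at 61.0 CPM in SAR131675, 85.8 CPM in control diet, 7486 CPM in LNR and 237 CPM in sham, and their part in the ratios was not tested.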

How the results depend on the processing

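No paired analysis was possible because each condition has 1 library and no test was run. The 51 SAR131675 and 33 LNR combinations past 1.5-fold became 16 and 17 when cells were classed singly by markers, 10 and 16 without cells with markers of another lineage, 29 and 15 at a fold of 2, and 18 and 10 at a minimum of 100 UMIs; the first 2 settings leave fewer classes with 50 cells. At resolution 0.7 they were 52 and 38, with no upper limits on cells 62 and 33, without called doublets 47 and 37, and with per-cell means 65 and 44, all within 1.5 times.

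Some ratios turned direction. In SAR131675, Egfr in dendritic cells became -0.32 without called doublets, Tgfa in the inner root sheath -0.77 with per-cell means and -0.035 with cells thinned to 1500 UMIs, Egfr in lymphatic endothelium 0.18 with cells classed singly, and Btc in spinous cells -0.50 with per-cell means. In LNR, Hbegf in the sweat gland became 0.14 without cells with markers of another lineage, 0.43 with per-cell means and 0.20 with thinning, and Hbegf in wound or nail keratinocytes -0.41 without cells with markers of another lineage. The cause was not tested.

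The leading class of Ereg and Btc was the granular class under every setting run. That of Hbegf, Egfr, Erbb3 and, in the SAR131675 experiment, Areg changed only without cells with markers of another lineage, where under 50 cells of it were left. That of Nrg1 changed where cells were classed singly, which left 3 to 7 wound or nail cells, and in sham at resolution 0.7, where monocyte-like cells led at 43.0 CPM. The leading classes of Erbb2 and, outside the SAR131675 library, of Tgfa changed under several settings. The values of Btc and Nrg1 in LNR and sham rest on 404 to 523 UMIs in a whole library. Levels of the members also depended on the processing. Levels sorted as moved and as unmoved numbered 18 and 18 with no upper limits on cells and 18 and 18 with per-cell means. They numbered 12 and 24 at resolution 0.7 and 9 and 27 without called doublets. With cells classed singly they were 21 and 8, and without cells with markers of another lineage 13 and 9. The Poisson intervals do not cover this.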
